A study of Mus musculus with 16 samples.

Results

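The Zbtb genes encode transcription factors that join an N-terminal BTB domain, through which they pair with one another and recruit co-repressors, to C-terminal zinc fingers that bind DNA. Several of them steer lymphocyte fate, among them Zbtb16 (PLZF) in innate-like T cells, Zbtb7a (LRF) and Zbtb1 in lymphoid development, and Zbtb17 (Miz-1), a partner of Myc, while Zbtb33 (Kaiso), Zbtb4 and Zbtb38 bind methylated DNA. 5-hydroxymethylcytosine (5hmC) is made from 5-methylcytosine by TET enzymes, which vitamin C stimulates, and it lies in gene bodies and enhancers of genes in use. The members described here were every region of the count table whose assigned symbol was Zbtb followed by a digit, without Zbtb7b and Zbtb46. They came to 401 of 177720 regions and to 37 of 15543 gene symbols. Zbtb8os met this rule by its name, although it is named for lying opposite Zbtb8 and is no BTB zinc finger factor.

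5hmC was mapped in CD4 T cells by CMS-IP, which converts 5hmC with bisulfite to CMS (cytosine-5-methylenesulfonate) and pulls down fragments holding it with an antiserum. The mice, C57BL/6 with a Foxp3-eGFP reporter, were 5 to 6 weeks old and gave spleens and lymph nodes. The 4 groups, each with 2 pull-down and 2 input libraries, were iTreg made with TGFβ plus retinoic acid plus vitamin C (RA+VitC iTreg), iTreg differentiated with TGFβ (TGFβ iTreg), Treg sorted as CD4+eGFP+, and naive cells sorted as CD4+eGFP-CD25-CD62LhiCD44lo. The iTreg came from naive CD4 cells differentiated in culture, and retinoic acid and vitamin C were always given together. Culture without TGFβ was not analysed here. The labels do not say that replicates came from separate mice or cultures, so p-values measure the spread between libraries, which may be technical.

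Pull-downs held 3996442 and 3828487 reads in regions in RA+VitC iTreg, 1648804 and 2114056 in TGFβ iTreg, 7664194 and 8347328 in Treg, against 7773777 and 9731897 in naive cells. The Zbtb regions took 0.243% and 0.245% of these reads in RA+VitC iTreg, 0.219% and 0.221% in TGFβ iTreg, 0.266% and 0.270% in Treg, against 0.237% and 0.238% in naive cells. Inputs held 0.236% to 0.251% in these regions. All values below are CPM. For pull-downs these are reads scaled to a library's reads in the features that passed the filter on low counts, after TMM. Gene sums and single regions were scaled separately, so their CPM differ slightly. Input CPM were scaled to all reads counted, without TMM, so pull-down and input values are on somewhat different scales. All CPM are shares within a library and not amounts of 5hmC. Genes marking Treg served to check the groups: all 4 (Foxp3, Ikzf2, Il2ra and Ctla4) were higher in RA+VitC iTreg than in naive cells, 3 of 4 in TGFβ iTreg (Foxp3 at a log2 fold change of 0.19 did not pass) and all 4 in Treg. Of genes marking CD8 and NK cells, 3 of 4 tested were lower than in naive cells in each of the 3 groups, and their summed level was 102 and 109 CPM in RA+VitC iTreg, 133 and 130 in TGFβ iTreg, 245 and 235 in Treg, against 294 and 297 in naive cells. For markers of myeloid and dendritic cells, of which 2 of 4 tested were lower than in naive cells in each of the 3 groups, the sum was 141 and 162 in RA+VitC iTreg, 234 and 231 in TGFβ iTreg, 246 and 248 in Treg, against 358 and 361 in naive cells. Cd14, in the myeloid list, had no read in at least 1 library. Of 4 T cell genes, 0 were higher than in naive cells, and 3, 3 and 4 were lower in RA+VitC iTreg, TGFβ iTreg and Treg. In that order, 2, 1 and 0 of 4 naive T cell genes were higher than in naive cells and 2, 2 and 4 lower. Among 6 B cell genes, 2, 3 and 1 were higher and 1, 1 and 0 lower. All genes gave 29.2%, 23.4% and 20% higher and 26.6%, 18.2% and 19.2% lower. The part of other cells in the results below was not tested.

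The Zbtb genes have promoters rich in CG dinucleotides, the sequence that carries cytosine methylation and hydroxymethylation. The 250 bases before the start, from RefSeq on build GRCm38.p6, are shown for 5 members whose regions at the 5′ end or in the gene body carry the results below, 5′ to 3′ on the gene's strand with every CG in capitals.
Zbtb18, chr1:177442101-177442350, plus strand: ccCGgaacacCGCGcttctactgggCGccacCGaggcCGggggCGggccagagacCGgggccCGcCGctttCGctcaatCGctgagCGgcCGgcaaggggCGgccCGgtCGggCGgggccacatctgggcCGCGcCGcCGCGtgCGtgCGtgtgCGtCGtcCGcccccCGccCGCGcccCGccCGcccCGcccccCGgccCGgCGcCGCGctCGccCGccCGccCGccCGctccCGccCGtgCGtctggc
Zbtb41, chr1:139422133-139422382, plus strand: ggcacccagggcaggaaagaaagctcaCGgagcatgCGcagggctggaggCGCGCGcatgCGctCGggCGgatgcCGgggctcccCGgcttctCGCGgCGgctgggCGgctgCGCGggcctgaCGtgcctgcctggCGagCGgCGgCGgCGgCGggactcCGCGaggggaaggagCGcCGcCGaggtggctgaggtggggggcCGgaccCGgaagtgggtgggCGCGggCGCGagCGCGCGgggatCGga
Zbtb2, chr10:4388109-4388358, minus strand: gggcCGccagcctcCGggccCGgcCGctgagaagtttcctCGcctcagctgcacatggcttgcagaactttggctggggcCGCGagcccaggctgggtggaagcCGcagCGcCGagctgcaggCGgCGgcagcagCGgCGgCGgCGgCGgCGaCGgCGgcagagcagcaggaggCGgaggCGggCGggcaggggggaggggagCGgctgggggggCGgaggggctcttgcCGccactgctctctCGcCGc
Zbtb5, chr4:45012413-45012662, minus strand: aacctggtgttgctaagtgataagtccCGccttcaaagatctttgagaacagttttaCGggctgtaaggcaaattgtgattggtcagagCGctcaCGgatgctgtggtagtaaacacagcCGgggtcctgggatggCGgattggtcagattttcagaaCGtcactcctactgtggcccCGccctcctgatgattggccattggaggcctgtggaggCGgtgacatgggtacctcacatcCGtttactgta
Zbtb20, chr16:43247034-43247283, plus strand: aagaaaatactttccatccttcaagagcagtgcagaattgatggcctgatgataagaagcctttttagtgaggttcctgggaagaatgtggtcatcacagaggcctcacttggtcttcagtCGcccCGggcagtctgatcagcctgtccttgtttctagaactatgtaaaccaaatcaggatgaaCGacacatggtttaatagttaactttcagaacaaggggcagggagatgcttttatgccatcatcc
The count of CG in these windows, the same on both strands, was 47 for Zbtb18, 38 for Zbtb41, 28 for Zbtb2, 10 for Zbtb5 and 3 for Zbtb20, whose window stands before a start 371595 bp inside the gene. At least 10 CG were found before a start of 29 of the 32 members with a promoter in the RefSeq table (90.6%), against 40.2% of all 27025 genes in it. A CG was present in 100% of the members' and in 92.3% of all genes' windows. In the count table, on build mm9, the start of the transcript named for a gene lay 755 bp from the nearest region for Zbtb2 and 1196 bp for Zbtb5. For Zbtb18 and Zbtb41 the table's distance column places a region over an annotated start (0 bp), although the start of the transcript it names lay 1360 and 526 bp from the nearest region. By that column 12 of the 401 Zbtb regions covered an annotated start (2.99%), against 2.46% of all regions.

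The Zbtb regions had a median width of 859 bp, against 745 bp for all regions. A transcript was overlapped by 73.1% of them, against 62.5%, a 5′ UTR by 8.98%, against 4.09%, and 47.9% lay in introns alone, against 39.1%. Zbtb20 held 110 of the 401 regions (27.4%), Zbtb38 held 25 and Zbtb16 held 22. Summed per gene, all 37 members passed the filter on low counts, with 28.6 (Zbtb8b) to 3065 (Zbtb20) reads per pull-down on average, and 314 of the 401 regions passed it singly. Per kb of region, the median member stood at 3.44 CPM in RA+VitC iTreg, 3.18 in TGFβ iTreg, 3.78 in Treg and 3.36 in naive cells, against 3.53, 3.55, 3.54 and 3.49 for all genes. The highest member per kb was Zbtb18 in RA+VitC iTreg at 10.3, Zbtb12 in TGFβ iTreg at 10.3, and Zbtb22 in Treg at 11.3 and in naive cells at 11.4.

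Of the 37 Zbtb gene sums, 9 were higher and 11 lower in RA+VitC iTreg than in naive cells, by edgeR's quasi-likelihood test at an adjusted p under 0.05. Over all 14951 genes tested, 29.2% were higher and 26.6% lower. In TGFβ iTreg 6 members were higher than in naive cells and 11 lower, where all genes gave 23.4% and 18.2%, and without TGFβ iTreg replicate 1 the count was 4 higher and 7 lower. In Treg 9 were higher than in naive cells and 5 lower, where all genes gave 20% and 19.2%. The median log2 fold change over the members against that over all genes was -0.11 against -0.02 in RA+VitC iTreg, -0.12 against -0.02 in TGFβ iTreg, and 0.09 against -0.0005 in Treg, each relative to naive cells. RA+VitC iTreg differed from TGFβ iTreg in 7 members that were higher and 1 that was lower, where all genes gave 12.4% and 10.7%. Relative to Treg, RA+VitC iTreg had 5 members higher and 15 lower, where all genes gave 26.6% and 23.1%, and TGFβ iTreg had 3 higher and 13 lower, where all genes gave 20.7% and 15.1%. Leaving out TGFβ iTreg replicate 2 changed the last count to 1 higher and 10 lower, and leaving out Treg replicate 1 to 1 higher and 13 lower. With library sizes in place of TMM the calls were 8 higher and 19 lower for RA+VitC iTreg relative to naive cells, and 1 higher and 14 lower for TGFβ iTreg relative to Treg. For RA+VitC iTreg relative to naive cells DESeq2 gave 8 higher and 6 lower, and thinning to equal depth 9 and 7. Relative to Treg each of these gave 5 higher and 8 lower. For TGFβ iTreg relative to naive cells they gave 4 higher and 8 lower, and 5 and 9. In the inputs no member was called in any comparison by edgeR, and 1 to 5 of the 37 had an unadjusted p under 0.05. Of all genes in the inputs, 0.0234% were higher in RA+VitC iTreg and 0.0156% in TGFβ iTreg than in naive cells. Relative to Treg, 0.257% were higher and 0.0234% lower in RA+VitC iTreg, and 0.0624% were higher and 0.0078% lower in TGFβ iTreg.

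Of the 37 genes, 29 were called in at least 1 of the 6 comparisons, as were 76.1% of all genes. Zbtb10, Zbtb18, Zbtb20 and Zbtb41 were higher in all 3 groups than in naive cells, and Zbtb2, Zbtb9, Zbtb24 and Zbtb40 were lower in all 3. A further member, Zbtb21, was higher in both iTreg than in naive cells, and Zbtb4, Zbtb16, Zbtb22, Zbtb33 and Zbtb38 were lower in both. These comparisons share the naive libraries, and for Zbtb21, Zbtb22, Zbtb24, Zbtb33, Zbtb38, Zbtb40 and Zbtb41 at least 1 of the calls did not pass without 1 of the libraries. Zbtb3, Zbtb6, Zbtb8b, Zbtb12, Zbtb14, Zbtb37, Zbtb42 and Zbtb48 were not called in any comparison. The group with the highest mean was RA+VitC iTreg for 8 members, TGFβ iTreg for 6, Treg for 13 and naive cells for 10, and the group with the lowest was RA+VitC iTreg for 9, TGFβ iTreg for 15, Treg for 3 and naive cells for 10. These counts include the 8 members not called in any comparison. They were not taken over all genes, so they are not shown to be particular to the family.

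**Figure D1:**
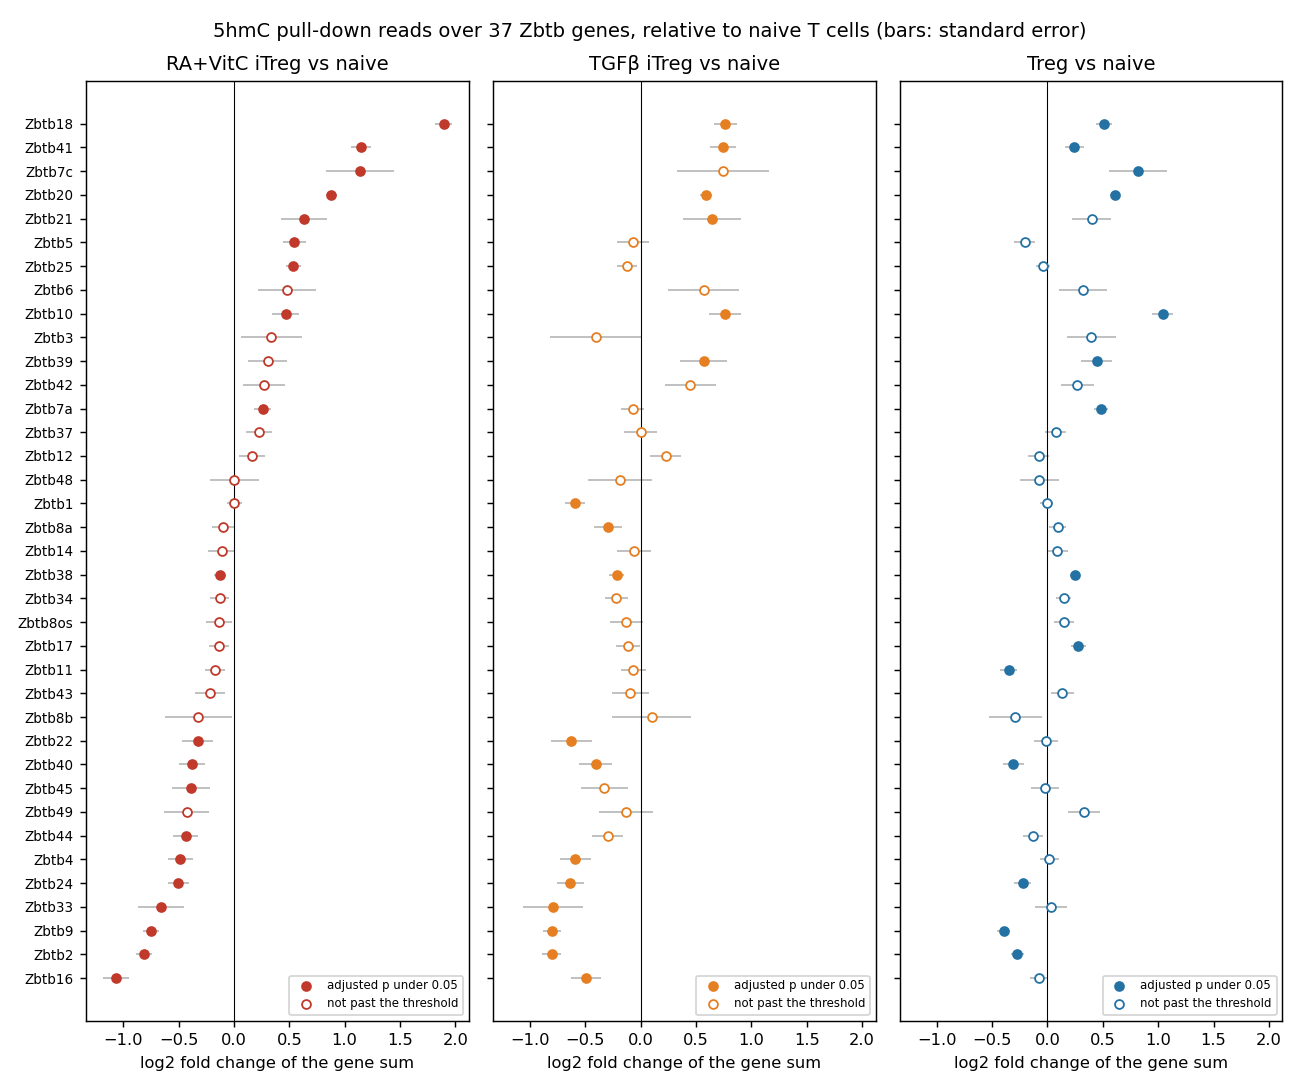
Log2 fold change of each of the 37 Zbtb gene sums (rows, ordered by the first panel) relative to naive cells in RA+VitC iTreg, TGFβ iTreg and Treg, with standard errors as bars. Filled points passed an adjusted p of 0.05. Zbtb18 stands at 1.89 in RA+VitC iTreg, 0.76 in TGFβ iTreg and 0.51 in Treg, and Zbtb16 lies lowest in RA+VitC iTreg at -1.06.

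Zbtb18 (RP58, a transcriptional repressor known from neurons and muscle) had the largest rise. Its 10 regions together held 201 and 200 CPM in RA+VitC iTreg, 86.7 and 95.8 in TGFβ iTreg, 74.7 and 78.8 in Treg, against 55.8 and 52.4 in naive cells. The groups did not overlap, and the inputs ranged from 83.6 to 99.7. The sum was 3.71-fold higher in RA+VitC iTreg than in naive cells (log2 fold change 1.89 ± 0.07 SE, adjusted p = 1.76e-50), 2.19-fold higher than in TGFβ iTreg (1.13 ± 0.09, adjusted p = 3.12e-20) and 2.61-fold higher than in Treg (1.38 ± 0.07, adjusted p = 9.78e-39). Most of it came from a 12911-bp region over the gene, chr1:179374083-179386993, which overlaps its 5′ UTR, exons, intron and 3′ UTR. This region held 167 and 167 CPM in RA+VitC iTreg, 62.5 and 65.9 in TGFβ iTreg, 47.4 and 53.0 in Treg, against 35 and 30.8 in naive cells. The inputs ranged from 47.6 to 62.4. Over the gene, naive libraries stood below all inputs and RA+VitC iTreg libraries above all of them. The log2 fold change of the region was 2.35 ± 0.09 relative to naive cells (adjusted p = 1.65e-133) and 1.37 ± 0.12 relative to TGFβ iTreg (adjusted p = 5.46e-29). Between TGFβ iTreg and Treg the sum of Zbtb18 differed by 0.25 (adjusted p = 0.0381), which did not pass without TGFβ iTreg replicate 2 (0.17, adjusted p = 0.427) or without Treg replicate 1 (0.22, adjusted p = 0.13).

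At Zbtb5 the RA+VitC iTreg libraries stood apart at the 5′ end. This gene, which in human cells represses the cell cycle inhibitor p21, had 57.7 and 53.4 CPM in RA+VitC iTreg, 39.8 and 33.3 in TGFβ iTreg, 33.7 and 32.3 in Treg, against 38.8 and 37.5 in naive cells. Most of the difference lay in a region at the 5′ end, chr4:45022233-45024088, with 25.5 and 22.1 in RA+VitC iTreg, 5.36 and 9.48 in TGFβ iTreg, 6.64 and 7.91 in Treg, against 6.92 and 5.96 in naive cells. RA+VitC iTreg were above all other libraries there, and the other 3 groups overlapped. The log2 fold change of this region was 1.89 ± 0.19 relative to naive cells (adjusted p = 4.09e-22) and 1.65 ± 0.27 relative to TGFβ iTreg (adjusted p = 2.13e-07). The 8824-bp region towards the 3′ end, chr4:45005163-45013986, held 29.0 and 27.2 in RA+VitC iTreg and 25.9 and 24.9 in naive cells, a log2 fold change of 0.15 that did not pass. The gene sum of Zbtb5 relative to TGFβ iTreg (0.62, adjusted p = 0.000774) did not pass without TGFβ iTreg replicate 2 (0.48, adjusted p = 0.0861).

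Zbtb25, a repressor of NFAT target genes in human T cells, had 165 and 152 CPM in RA+VitC iTreg, 104 and 97.4 in TGFβ iTreg, 106 and 107 in Treg, against 111 and 108 in naive cells. The log2 fold change was 0.54 ± 0.07 relative to naive cells (adjusted p = 1.15e-11) and 0.66 ± 0.10 relative to TGFβ iTreg (adjusted p = 7.26e-09). Zbtb1, needed for T cell development from lymphoid progenitors, starts 706 bp from Zbtb25 on the opposite strand and had another pattern. Its sum was 193 and 150 CPM in RA+VitC iTreg, 112 and 115 in TGFβ iTreg, 160 and 181 in Treg, against 172 and 171 in naive cells. TGFβ iTreg were below every other library, with a log2 fold change of -0.59 ± 0.09 relative to naive cells (adjusted p = 8.65e-09) and -0.59 ± 0.09 relative to Treg (adjusted p = 2.05e-08). RA+VitC iTreg were higher than TGFβ iTreg by 0.59 ± 0.10 (adjusted p = 2.74e-07), and their sum differed from naive cells by 0.00 ± 0.07 (adjusted p = 0.987). The region with most reads, 15458 bp over Zbtb1 at chr12:77473193-77488650, held 153 and 124 in RA+VitC iTreg, 81.0 and 81.3 in TGFβ iTreg, 116 and 134 in Treg, against 131 and 133 in naive cells.

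Zbtb41 reads moved in different ways within and outside the gene. Its 14 regions summed to 92.9 and 91.4 CPM in RA+VitC iTreg, 69.4 and 69.8 in TGFβ iTreg, 50.2 and 48.0 in Treg, against 40.5 and 42.4 in naive cells, and the groups did not overlap. The sum was higher than in naive cells by 1.15 ± 0.09 in RA+VitC iTreg (adjusted p = 4.02e-23), 0.74 ± 0.12 in TGFβ iTreg (adjusted p = 4.94e-08) and 0.24 ± 0.09 in Treg (adjusted p = 0.0182). Over the regions inside the transcript alone the difference was 0.51 in RA+VitC iTreg (adjusted p = 3.14e-05), -0.09 in TGFβ iTreg (adjusted p = 0.709) and 0.11 in Treg (adjusted p = 0.401). A region upstream, chr1:141308993-141310605, outside any transcript, had 14.1 and 14.7 in RA+VitC iTreg, 10.7 and 11.97 in TGFβ iTreg, 3.07 and 1.89 in Treg, against 0.897 and 1.85 in naive cells. It was chosen after its values were seen, and its log2 fold change was 3.31 ± 0.29 in RA+VitC iTreg and 2.98 ± 0.37 in TGFβ iTreg relative to naive cells. At the 5′ end of the gene, chr1:141319486-141321086, RA+VitC iTreg had 23.7 and 21.8, TGFβ iTreg 11.3 and 10.98, Treg 16.6 and 15.8, and naive cells 17.8 and 16.6. There RA+VitC iTreg were higher than naive cells by 0.41 ± 0.16 (adjusted p = 0.0296) and TGFβ iTreg lower by a log2 fold change of -0.62 ± 0.24 (adjusted p = 0.0436), and RA+VitC iTreg were higher than TGFβ iTreg by 1.03 ± 0.25 (adjusted p = 0.00147). The sum's difference between RA+VitC iTreg and TGFβ iTreg (0.41, adjusted p = 0.00443) did not pass without TGFβ iTreg replicate 2 (0.41, adjusted p = 0.0521). The difference between Treg and naive cells did not pass without Treg replicate 1 (0.21, adjusted p = 0.126), naive replicate 1 (0.21, adjusted p = 0.135) or naive replicate 2 (0.28, adjusted p = 0.054).

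**Figure D2:**
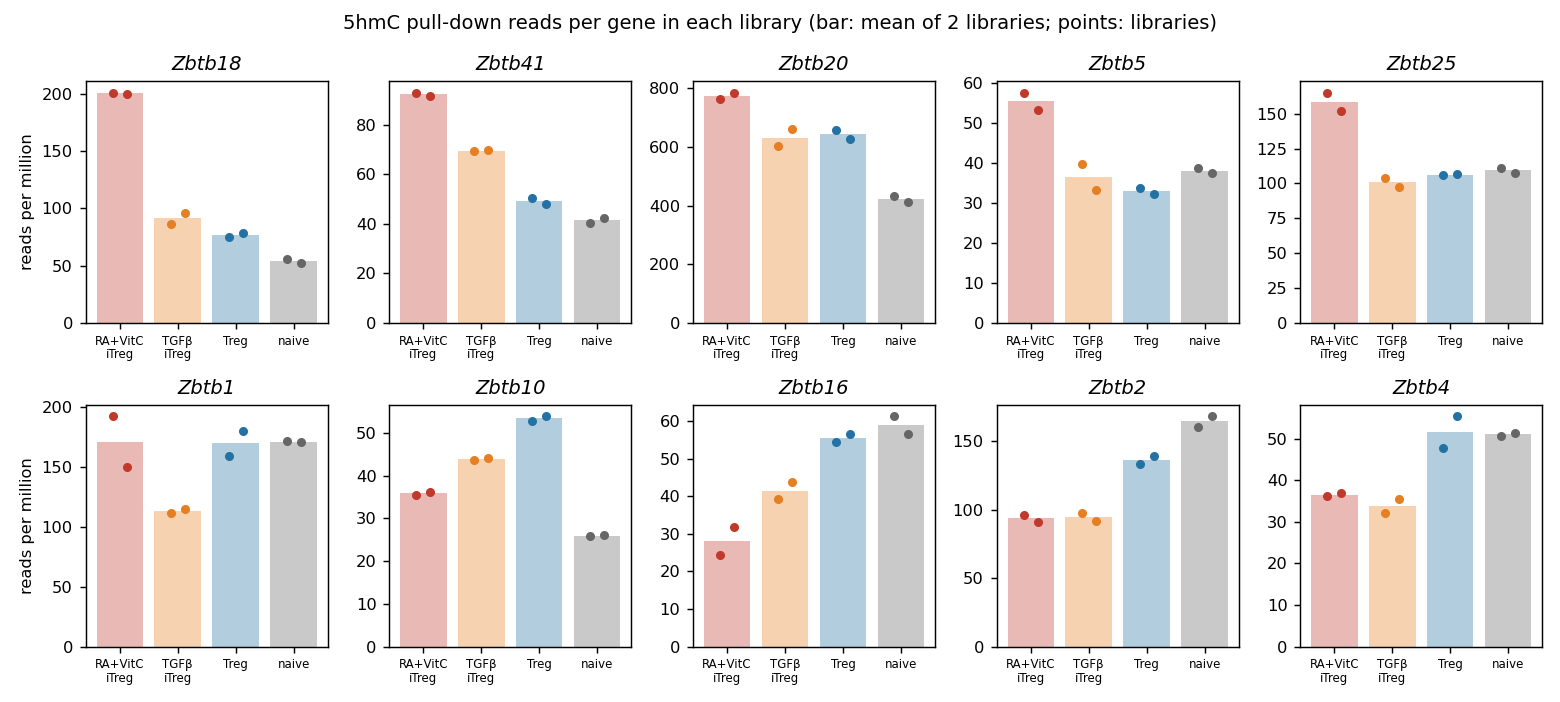
CPM (vertical axis, from 0) in each pull-down library for 10 Zbtb gene sums, with bars at the mean of 2 libraries and points for the libraries. Zbtb18 reaches 201 and 200 in RA+VitC iTreg, against 55.8 and 52.4 in naive cells, and Zbtb1 is lowest in TGFβ iTreg at 112 and 115.

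Zbtb34 also held regions called in opposite directions. At Zbtb34 a 5′ region, chr2:33281391-33285725, had 42.2 and 33.5 CPM in RA+VitC iTreg, 23.8 and 21.9 in TGFβ iTreg, 16.4 and 14.2 in Treg, against 14.5 and 12.2 in naive cells. It was higher than in naive cells by 1.51 ± 0.15 in RA+VitC iTreg (adjusted p = 1.39e-23) and 0.78 ± 0.20 in TGFβ iTreg (adjusted p = 0.00118). A region outside the transcript, chr2:33254515-33261078, went the other way, with 11.4 and 9.57 in RA+VitC iTreg, 14.3 and 9.48 in TGFβ iTreg, 24.8 and 23.3 in Treg, against 21.4 and 24.5 in naive cells. Its log2 fold change relative to naive cells was -1.13 ± 0.18 in RA+VitC iTreg (adjusted p = 9.25e-09) and -0.98 ± 0.22 in TGFβ iTreg (adjusted p = 0.000153). The sum of all 12 regions differed from naive cells by -0.13 in RA+VitC iTreg and -0.22 in TGFβ iTreg, which did not pass. Of the 12, 1 was higher and 3 lower than in naive cells in RA+VitC iTreg (all regions 21.9% and 15.8%). In TGFβ iTreg 1 was higher and 2 lower (all regions 13.1% and 8.28%). Over the 314 tested Zbtb regions 35 overlapped a 5′ UTR, in 26 genes. Of these, 10 in 8 genes were higher in RA+VitC iTreg than in TGFβ iTreg and 0 lower, where all regions on a 5′ UTR gave 11.1% and 1.66% and 62 of the 314 Zbtb regions had an unadjusted p under 0.05. In TGFβ iTreg 3 of the 35 were higher than in naive cells and 11 lower, where all regions on a 5′ UTR gave 11.4% and 17.6%.

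Zbtb7a, which directs B against T cell fate in progenitors, had its upstream and body regions out of step. A region on the promoter side, chr10:80595836-80597896, held 21.1 and 23.0 CPM in RA+VitC iTreg, 14.3 and 30.4 in TGFβ iTreg, 9.07 and 10.3 in Treg, against 5.26 and 6.78 in naive cells. Both kinds of iTreg were above all sorted libraries, though the TGFβ iTreg libraries lay far apart. Its log2 fold change relative to naive cells was 1.85 ± 0.19 in RA+VitC iTreg (adjusted p = 4.42e-20), 1.91 ± 0.23 in TGFβ iTreg (adjusted p = 6.77e-15) and 0.67 ± 0.19 in Treg (adjusted p = 0.00385). Over the gene body, chr10:80601735-80618636, RA+VitC iTreg had 73.2 and 82.2, TGFβ iTreg 51.2 and 52.4, Treg 95.7 and 116, and naive cells 77.1 and 75.3. The body was highest in Treg, at 0.48 ± 0.08 relative to naive cells (adjusted p = 6.85e-08), and lowest in TGFβ iTreg, at -0.55 ± 0.13 (adjusted p = 0.000176), while RA+VitC iTreg differed from naive cells by 0.03 ± 0.10 (adjusted p = 0.845). This body region also overlaps Pias4, whose reads cannot be told apart from those of Zbtb7a. The sum of Zbtb7a in RA+VitC iTreg relative to naive cells (0.26, adjusted p = 0.00337) did not pass without RA+VitC iTreg replicate 2 (0.15), with library sizes in place of TMM (0.10, adjusted p = 0.245) or over regions in a transcript alone (0.00, adjusted p = 0.97).

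**Figure D3:**
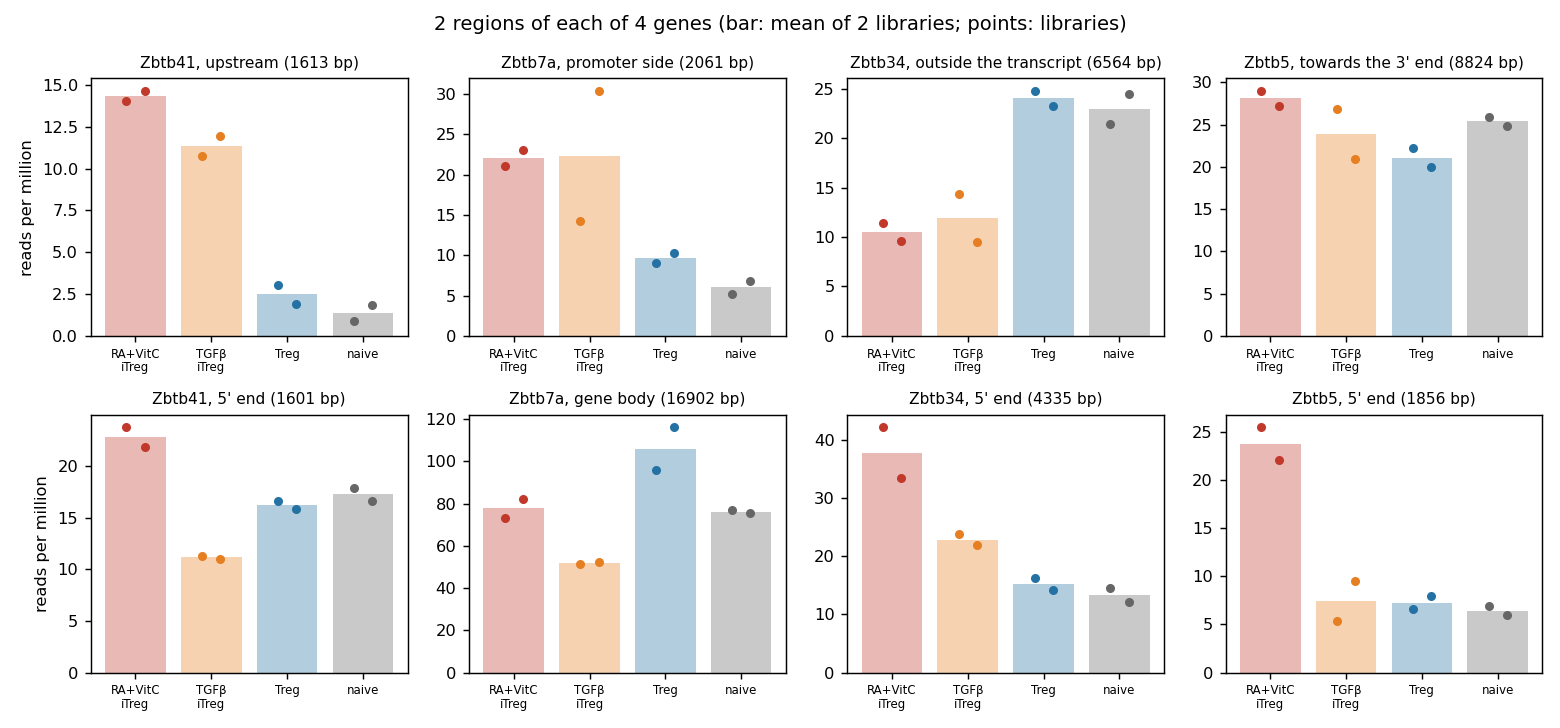
CPM (vertical axes, from 0) in each pull-down library over 2 regions of Zbtb41, Zbtb7a, Zbtb34 and Zbtb5, with bars at the mean of 2 libraries and points for the libraries. The 5′ region of Zbtb5 holds 25.5 and 22.1 in RA+VitC iTreg and at most 9.48 elsewhere, and the regions within Zbtb7a and within Zbtb34 order the groups differently.

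Zbtb20, a repressor with roles in plasma cells and liver, had the most reads of the family and was higher in all 3 groups than in naive cells. Its 110 regions held 764 and 785 CPM in RA+VitC iTreg, 602 and 661 in TGFβ iTreg, 657 and 628 in Treg, against 432 and 411 in naive cells. The inputs ranged from 638 to 700. The log2 fold change relative to naive cells was 0.88 ± 0.05 in RA+VitC iTreg (adjusted p = 3.41e-36), 0.59 ± 0.05 in TGFβ iTreg (adjusted p = 1.23e-18) and 0.61 ± 0.05 in Treg (adjusted p = 2.22e-24). Of the mm9 transcripts under this symbol, the longest ends before Tigit, an inhibitory receptor gene of T cells, and the shortest runs over it. Of the Zbtb20 regions, 85 lie before Tigit, 5 overlap it and 20 lie beyond. Reads on Tigit cannot be told from reads on Zbtb20, so the sum was also taken over these stretches, a division made after the values were seen.

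Before Tigit, the 85 regions held 412 and 421 CPM in RA+VitC iTreg, 350 and 356 in TGFβ iTreg, 444 and 418 in Treg, against 253 and 237 in naive cells. All 3 groups were above naive cells, by 0.77 ± 0.05 in RA+VitC iTreg (adjusted p = 3.08e-27), 0.53 in TGFβ iTreg (adjusted p = 9.24e-13) and 0.81 in Treg (adjusted p = 4.9e-32). Over the 5 regions on Tigit the values were 82.2 and 92.6 in RA+VitC iTreg, 67.4 and 71.8 in TGFβ iTreg, 48.7 and 50.2 in Treg, against 25.6 and 25.6 in naive cells. Beyond Tigit they were 270 and 271 in RA+VitC iTreg, 184 and 233 in TGFβ iTreg, 164 and 160 in Treg, against 153 and 148 in naive cells. The whole sum was higher in RA+VitC iTreg than in Treg by 0.27 ± 0.05 (adjusted p = 2.55e-07), but before Tigit the difference was -0.05 (adjusted p = 0.441), against 0.82 on Tigit and 0.74 beyond it. TGFβ iTreg differed from Treg by -0.02 in the whole sum (adjusted p = 0.794) and by -0.29 before Tigit, a call in the lower direction, and were higher by 0.50 on Tigit and 0.38 beyond it. Another 19 regions that overlap Zbtb20, nearly all in introns alone, were assigned the symbol BC002163. They held 54.8 and 58.0 CPM in RA+VitC iTreg, 49.5 and 53.4 in TGFβ iTreg, 47.4 and 54.6 in Treg, against 47.1 and 43.1 in naive cells.

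Single Zbtb20 regions ordered the groups in different ways. A region over a 3′ UTR of Zbtb20, chr16:43612501-43624777, was highest in Treg, with 54.2 and 52.3 CPM in RA+VitC iTreg, 34.5 and 34.4 in TGFβ iTreg, 66.6 and 75.5 in Treg, against 29.5 and 25.1 in naive cells. Its log2 fold change was 1.39 ± 0.10 in Treg relative to naive cells (adjusted p = 1.05e-43). At chr16:43639724-43643397 the rise was called in Treg, at 1.25 ± 0.14 relative to naive cells, with 11.1 and 12.3 in RA+VitC iTreg, 5.96 and 11.97 in TGFβ iTreg, 22.2 and 23.9 in Treg, against 10.1 and 9.35 in naive cells. Both iTreg groups were lower than Treg there, by a log2 fold change of -0.98 ± 0.18 in RA+VitC iTreg and -1.32 ± 0.24 in TGFβ iTreg. At the 5′ UTR region chr16:43577689-43578836 the iTreg were highest, with 38.7 and 32.9 in RA+VitC iTreg, 23.8 and 24.9 in TGFβ iTreg, 9.33 and 11.7 in Treg, against 4.23 and 6.58 in naive cells. Its log2 fold change relative to naive cells was 2.69 ± 0.17 in RA+VitC iTreg (adjusted p = 1.04e-51) and 2.14 ± 0.23 in TGFβ iTreg (adjusted p = 1.68e-18). Just before it, another 5′ UTR region, chr16:43571036-43575706, was lowest in TGFβ iTreg, with 17.9 and 19.7 in RA+VitC iTreg, 4.17 and 6.49 in TGFβ iTreg, 24.1 and 18.7 in Treg, against 11.8 and 10.5 in naive cells. It was higher in RA+VitC iTreg than in TGFβ iTreg by 1.79 ± 0.31 (adjusted p = 1.3e-06), and lower in TGFβ iTreg than in Treg by a log2 fold change of -1.97 ± 0.28 (adjusted p = 1.36e-10). Beyond Tigit, chr16:43699507-43703042 had 68.6 and 60.7 in RA+VitC iTreg, 53.0 and 69.8 in TGFβ iTreg, 25.4 and 24.7 in Treg, against 15.5 and 15.2 in naive cells, with the iTreg groups overlapping each other and above all sorted libraries. On Tigit, chr16:43652734-43659627 had a log2 fold change relative to naive cells of 2.56 ± 0.15 in RA+VitC iTreg, 2.11 ± 0.20 in TGFβ iTreg and 1.39 ± 0.15 in Treg. Of the 67 regions tested before Tigit, 24 were higher and 5 lower than in naive cells in RA+VitC iTreg (all regions 21.9% and 15.8%), 15 higher and 2 lower in TGFβ iTreg (13.1% and 8.28%), and 27 higher and 2 lower in Treg (13% and 10.1%).

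**Figure D4:**
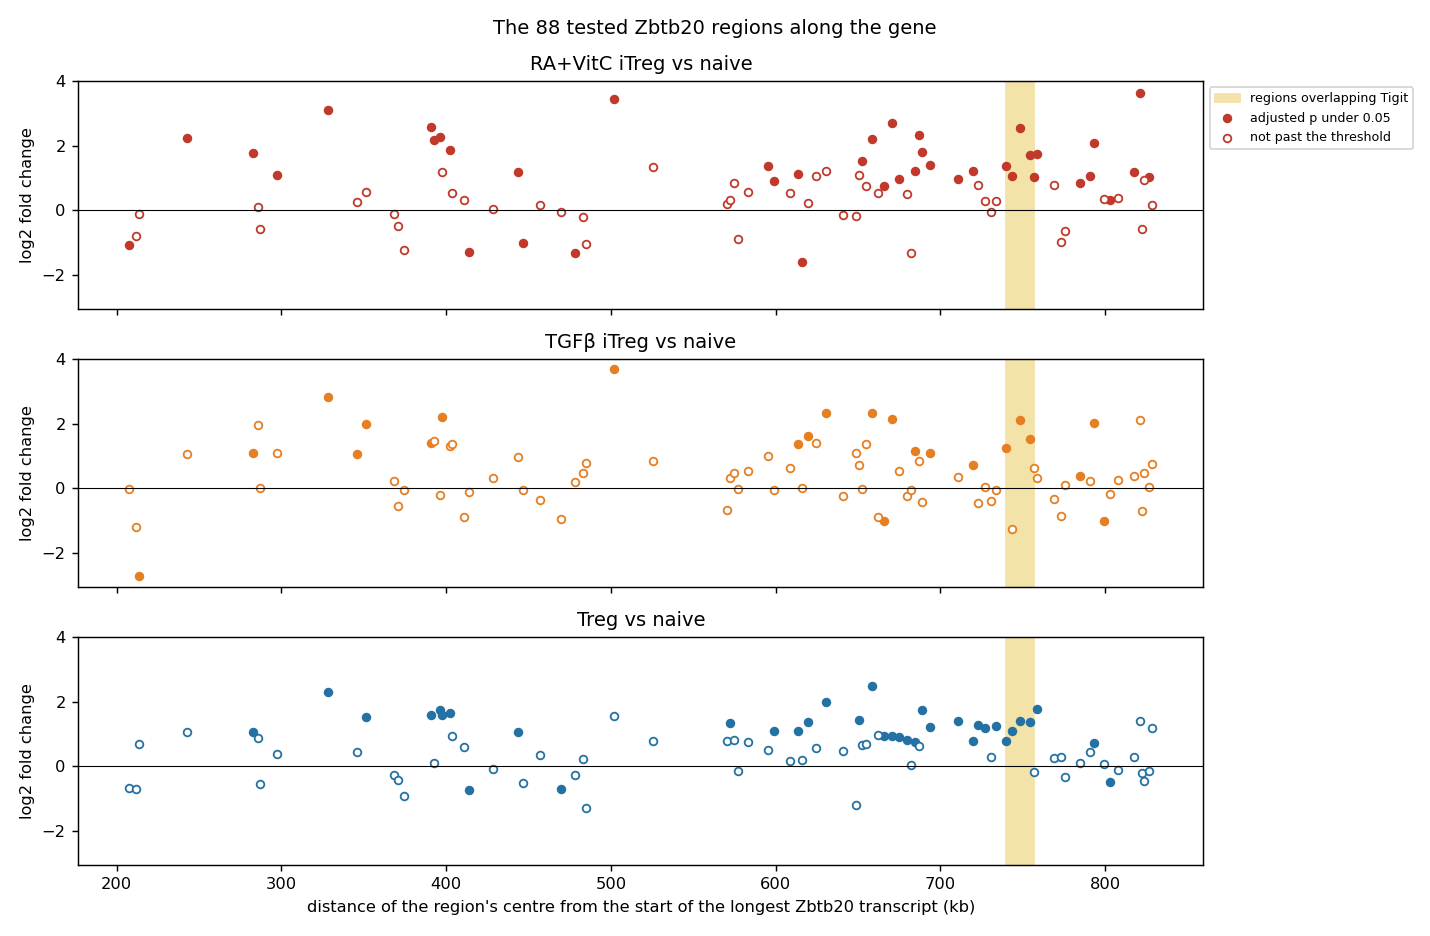
Log2 fold change relative to naive cells (vertical axes) of the 88 tested Zbtb20 regions against the distance of each region's centre from the start of the longest Zbtb20 transcript in kb, in RA+VitC iTreg, TGFβ iTreg and Treg. Filled points passed an adjusted p of 0.05, and the shaded span holds the 5 regions that overlap Tigit. Beyond it 8 of 16 regions were higher in RA+VitC iTreg and 2 of 16 in Treg, where all regions gave 21.9% and 13%.

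Zbtb10, which represses Sp transcription factor genes in human cells, was highest in Treg. Its sum was 35.5 and 36.3 CPM in RA+VitC iTreg, 43.7 and 44.3 in TGFβ iTreg, 52.9 and 53.9 in Treg, against 25.8 and 26.1 in naive cells, and the groups did not overlap. Relative to naive cells it was higher by 0.47 ± 0.12 in RA+VitC iTreg (adjusted p = 0.00072), 0.76 ± 0.15 in TGFβ iTreg (adjusted p = 5.48e-06) and 1.04 ± 0.09 in Treg (adjusted p = 1.06e-18). Of the 17 Zbtb10 regions 11 lay outside the transcript, up to 71549 bp away. Over the regions inside it the difference was 0.76 in RA+VitC iTreg (adjusted p = 0.000115) and 0.70 in TGFβ iTreg (adjusted p = 0.00863). There RA+VitC iTreg were not below TGFβ iTreg. The Zbtb10 region with most reads, chr3:9251651-9252808, had 4.98 and 5.38 in RA+VitC iTreg, 7.15 and 3.49 in TGFβ iTreg, 10.5 and 12.4 in Treg, against 3.21 and 3.39 in naive cells. For the sum of Zbtb10 the inputs ranged from 42.7 to 61.7, so no group stood above that range.

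Zbtb16, the factor that sets innate-like T cell programmes, was lowest in RA+VitC iTreg. It had 24.5 and 31.8 CPM in RA+VitC iTreg, 39.2 and 43.7 in TGFβ iTreg, 54.4 and 56.6 in Treg, against 61.3 and 56.5 in naive cells. The inputs over the same regions ranged from 54.3 to 80.0, so no group stood above that range and both iTreg groups lay below it. Treg and naive cells overlapped, and each kind of iTreg stood below both. The sum was 2.09-fold lower in RA+VitC iTreg than in naive cells (log2 fold change -1.06 ± 0.12, adjusted p = 1.2e-14) and 1.41-fold lower in TGFβ iTreg (-0.49 ± 0.13, adjusted p = 0.00115). The difference between RA+VitC iTreg and TGFβ iTreg (-0.57, adjusted p = 0.00669) was -0.39 (adjusted p = 0.179) without RA+VitC iTreg replicate 1 and -0.48 (adjusted p = 0.15) without TGFβ iTreg replicate 2. That between TGFβ iTreg and Treg (-0.41, adjusted p = 0.00942) was -0.35 (adjusted p = 0.115) without TGFβ iTreg replicate 1. An intron region, chr9:48611085-48612799, held 3.22 and 2.09 in RA+VitC iTreg, 3.57 and 4.99 in TGFβ iTreg, 8.69 and 8.15 in Treg, against 13.2 and 10.7 in naive cells. The inputs ranged from 4.60 to 10.6. It was the Zbtb16 region with most reads.

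Zbtb2, Zbtb9 and Zbtb24 fell in both iTreg and, by less, in Treg. Zbtb2 had 96.1 and 91.4 CPM in RA+VitC iTreg, 97.6 and 91.6 in TGFβ iTreg, 133 and 139 in Treg, against 161 and 168 in naive cells. The iTreg overlapped each other, at a log2 fold change relative to naive cells of -0.81 ± 0.07 in RA+VitC iTreg (adjusted p = 1.25e-19) and -0.81 ± 0.09 in TGFβ iTreg (adjusted p = 3.63e-14), against -0.27 ± 0.06 in Treg (adjusted p = 2.65e-05). Both large regions of the gene took part. The 17446-bp region from the 5′ UTR, chr10:5960132-5977577, held 39.3 and 42.8 in RA+VitC iTreg, 47.1 and 44.4 in TGFβ iTreg, 60.3 and 67.6 in Treg, against 78.8 and 82.0 in naive cells, and the region before the start, chr10:5944692-5957678, held 51.3 and 43.0 in RA+VitC iTreg, 34.5 and 36.9 in TGFβ iTreg, 60.5 and 59.8 in Treg, against 68.6 and 72.8 in naive cells. The table gives Zbtb2 on the plus strand in mm9, whereas the RefSeq promoter above is on the minus strand in GRCm38.p6.

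Zbtb9 had 126 and 106 CPM in RA+VitC iTreg, 106 and 117 in TGFβ iTreg, 146 and 151 in Treg, against 187 and 203 in naive cells. The longest transcript under this symbol spans 63200 bp in the table and overlaps Bak1 and Ggnbp1, while the shortest spans 3217 bp. The 3 regions at the short transcript, a choice made after the values were seen, gave a log2 fold change relative to naive cells of -0.99 in RA+VitC iTreg, -0.96 in TGFβ iTreg and -0.31 in Treg, and the 9 regions further along gave -0.65, -0.73 and -0.44. An intron region of the long transcript, chr17:27125680-27127173, was lowest in TGFβ iTreg, with 7.62 and 6.58 in RA+VitC iTreg, 2.38 and 2.99 in TGFβ iTreg, 7.41 and 9.33 in Treg, against 11.3 and 13.7 in naive cells. Zbtb24, whose human counterpart is mutated in a syndrome of immunodeficiency with lost DNA methylation, had 53.6 and 51.6 in RA+VitC iTreg, 41.7 and 53.1 in TGFβ iTreg, 63.8 and 63.8 in Treg, against 73.0 and 75.9 in naive cells. Its log2 fold change relative to naive cells was -0.50 ± 0.09 in RA+VitC iTreg (adjusted p = 1.75e-06), -0.64 ± 0.12 in TGFβ iTreg (adjusted p = 4.04e-06) and -0.23 in Treg (adjusted p = 0.00973), the last of which did not pass without Treg replicate 2 (-0.22, adjusted p = 0.0552) or naive replicate 2 (-0.19, adjusted p = 0.144).

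All 3 members known to bind methylated DNA were called lower by edgeR in both kinds of iTreg than in naive cells and than in Treg. Of all genes, 26.6% were lower than in naive cells and 23.1% than in Treg in RA+VitC iTreg, and 18.2% and 15.1% in TGFβ iTreg. Zbtb4 had 36.1 and 36.9 CPM in RA+VitC iTreg, 32.1 and 35.4 in TGFβ iTreg, 47.7 and 55.4 in Treg, against 50.6 and 51.4 in naive cells. Zbtb33 had 8.45 and 10.5 in RA+VitC iTreg, 8.35 and 8.85 in TGFβ iTreg, 13.2 and 17.3 in Treg, against 13.5 and 16.2 in naive cells. Zbtb38 had 232 and 250 in RA+VitC iTreg, 220 and 232 in TGFβ iTreg, 322 and 305 in Treg, against 263 and 263 in naive cells. Another gene is also overlapped by 5 of the 25 Zbtb38 regions and by 1 of the 6 Zbtb4 regions. For Zbtb4 and Zbtb33 the iTreg lay below all sorted libraries and Treg overlapped naive cells, and Zbtb38 was highest in Treg. Relative to naive cells the log2 fold changes in RA+VitC iTreg were -0.48 for Zbtb4 (adjusted p = 8.49e-05), -0.66 for Zbtb33 (adjusted p = 0.0038) and -0.13 for Zbtb38 (adjusted p = 0.0485), and in TGFβ iTreg they were -0.59, -0.79 and -0.22. In Treg the rise of Zbtb38 by 0.25 was called, and Zbtb4 and Zbtb33 stood at 0.02 and 0.03. By DESeq2 Zbtb33 did not pass relative to naive cells in RA+VitC iTreg (adjusted p = 0.0657) or TGFβ iTreg (adjusted p = 0.0763). Relative to Treg it did not pass by DESeq2 either (adjusted p = 0.0567 and 0.07 in that order). Zbtb38 in RA+VitC iTreg relative to naive cells did not pass by DESeq2 (adjusted p = 0.176). By edgeR it did not pass without the filter on low counts (adjusted p = 0.0576). Between RA+VitC iTreg and TGFβ iTreg 0 of the 3 were called by edgeR or by DESeq2, and 0 had an unadjusted p under 0.05 by edgeR.

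Several of these calls did not pass without 1 of the libraries, a fit that leaves 1 library in a group, and the direction stayed the same. For Zbtb33 in RA+VitC iTreg relative to naive cells the value was -0.51 (adjusted p = 0.101) without RA+VitC iTreg replicate 1 and -0.51 (adjusted p = 0.069) without naive replicate 2, and in TGFβ iTreg it was -0.76 (adjusted p = 0.0741) without TGFβ iTreg replicate 1, -0.84 (adjusted p = 0.0861) without replicate 2 and -0.64 (adjusted p = 0.0823) without naive replicate 2. For Zbtb38 in RA+VitC iTreg it was -0.07 (adjusted p = 0.458) without RA+VitC iTreg replicate 1 and -0.13 without naive replicate 1 (adjusted p = 0.13) or 2 (adjusted p = 0.143), and in TGFβ iTreg -0.18 (adjusted p = 0.0665) without TGFβ iTreg replicate 1. Relative to Treg, Zbtb33 was lower by a log2 fold change of -0.69 in RA+VitC iTreg (adjusted p = 0.00283), with -0.54 (adjusted p = 0.089) without RA+VitC iTreg replicate 1 and -0.48 (adjusted p = 0.0917) without Treg replicate 2, and of -0.83 in TGFβ iTreg (adjusted p = 0.00972), with -0.79 (adjusted p = 0.0676), -0.87 (adjusted p = 0.079) and -0.61 (adjusted p = 0.108) without TGFβ iTreg replicate 1, TGFβ iTreg replicate 2 and Treg replicate 2.

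Single regions of these 3 genes went different ways. In Zbtb4 the fall lay in an intron region, chr11:69580071-69584001. It had 15.2 and 15.5 CPM in RA+VitC iTreg, 11.3 and 14.5 in TGFβ iTreg, 26.6 and 27.5 in Treg, against 30.9 and 29.5 in naive cells. The log2 fold change was -0.97 ± 0.16 in RA+VitC iTreg (adjusted p = 1.46e-08) and -1.21 ± 0.21 in TGFβ iTreg (adjusted p = 1.4e-07) relative to naive cells. The Zbtb38 intron region chr9:96591297-96600500 fell alike, with 36.0 and 39.5 in RA+VitC iTreg, 29.2 and 30.9 in TGFβ iTreg, 65.9 and 63.2 in Treg, against 63.9 and 59.6 in naive cells. In the next large intron region, chr9:96604172-96607141, the iTreg were above all sorted libraries, with 24.6 and 29.0 in RA+VitC iTreg, 27.4 and 35.9 in TGFβ iTreg, 18.3 and 14.4 in Treg, against 17.3 and 21.5 in naive cells, and the log2 fold change relative to Treg was 0.72 ± 0.16 in RA+VitC iTreg (adjusted p = 3.83e-05) and 0.97 ± 0.18 in TGFβ iTreg (adjusted p = 1.59e-06). A region outside the Zbtb38 transcript, chr9:96559700-96561918, was highest in Treg, with 7.91 and 6.28 in RA+VitC iTreg, 7.15 and 7.98 in TGFβ iTreg, 15.8 and 14.2 in Treg, against 7.56 and 9.76 in naive cells. The Zbtb38 region with most reads, chr9:96609612-96619796, did not share the fall of the sum in RA+VitC iTreg. It held 67.1 and 64.6 in RA+VitC iTreg, 55.4 and 55.9 in TGFβ iTreg, 72.3 and 71.0 in Treg, against 61.2 and 62.3 in naive cells.

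Of the members with known roles in lymphocytes, 7 were tested (Zbtb1, Zbtb7a, Zbtb16, Zbtb17, Zbtb20, Zbtb24 and Zbtb25; Zbtb32 was not analysed here). Relative to naive cells 3 were higher and 2 lower in RA+VitC iTreg (all genes 29.2% and 26.6%), 1 higher and 3 lower in TGFβ iTreg (23.4% and 18.2%), and 3 higher and 1 lower in Treg (20% and 19.2%). Relative to Treg 2 were higher and 4 lower in RA+VitC iTreg (26.6% and 23.1%), and 0 higher and 5 lower in TGFβ iTreg (20.7% and 15.1%). RA+VitC iTreg had 4 higher and 1 lower than TGFβ iTreg (12.4% and 10.7%), with a median log2 fold change of 0.29 over the 7, against -0.0039 over all genes. Another gene is also overlapped by 1 of the 7 Zbtb17 regions. Zbtb17 had 67.6 and 67.4 CPM in RA+VitC iTreg, 68.1 and 69.2 in TGFβ iTreg, 86.7 and 93.5 in Treg, against 69.7 and 78.3 in naive cells, so Treg were above all other libraries. It was lower than in Treg by a log2 fold change of -0.42 in RA+VitC iTreg and -0.39 in TGFβ iTreg, and the rise in Treg over naive cells (0.28, adjusted p = 0.000481) was 0.20 (adjusted p = 0.0692) without naive replicate 1. Zbtb22, with 25.9 and 22.8 in RA+VitC iTreg, 12.2 and 26.0 in TGFβ iTreg, 28.5 and 32.0 in Treg, against 30.0 and 31.1 in naive cells, was called lower in TGFβ iTreg than in naive cells (-0.63, adjusted p = 0.00369), and without TGFβ iTreg replicate 1 the value was -0.23 (adjusted p = 0.45). Zbtb11 was lower in Treg than in naive cells (-0.35, adjusted p = 7.07e-05), with 63.5 and 60.0 in RA+VitC iTreg, 66.1 and 66.6 in TGFβ iTreg, 54.4 and 54.7 in Treg, against 66.2 and 72.4 in naive cells.

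Region by region, 73 of the 314 tested Zbtb regions were higher in RA+VitC iTreg than in naive cells and 33 lower, where all 135412 regions gave 21.9% and 15.8%. In TGFβ iTreg 42 were higher and 37 lower, where all regions gave 13.1% and 8.28%, with 47 called in all without TGFβ iTreg replicate 1 and 41 without replicate 2. In Treg 69 were higher and 19 lower, where all regions gave 13% and 10.1%. RA+VitC iTreg had 21 higher and 3 lower than TGFβ iTreg, where all regions gave 4.6% and 1.98%, with 13 called in all without TGFβ iTreg replicate 1. Relative to Treg, RA+VitC iTreg had 44 higher and 33 lower, where all regions gave 17.8% and 11.4%, and TGFβ iTreg had 17 higher and 39 lower, where all regions gave 9.55% and 5.88%, with 18 higher and 17 lower without TGFβ iTreg replicate 1, 7 and 21 without replicate 2, and 14 and 13 by DESeq2. With library sizes in place of TMM, which shifts all regions by -0.23 in RA+VitC iTreg relative to naive cells, by -0.19 relative to TGFβ iTreg and by -0.25 relative to Treg, the calls were 57 higher and 59 lower, 12 higher and 4 lower, and 33 higher and 67 lower in these 3 comparisons. Zbtb20 gave 37 of the 73 regions that were higher in RA+VitC iTreg than in naive cells and 33 of the 69 in Treg, from 88 tested. Without it, 36 of 226 regions were higher and 28 lower in RA+VitC iTreg, and 36 higher and 16 lower in Treg. In the inputs 0 of the 107 Zbtb regions tested there were called in any comparison by edgeR, 3 to 6 had an unadjusted p under 0.05, and of all regions 0.00668% were higher in RA+VitC iTreg and 0.00223% in TGFβ iTreg than in naive cells. Relative to Treg, 0.00223% of all input regions were higher and 0.00223% lower in RA+VitC iTreg, and 0.00223% higher in TGFβ iTreg. Regions of the same gene were called in both directions at 9 of 24 genes with a called region in RA+VitC iTreg, 11 of 21 in TGFβ iTreg and 5 of 24 in Treg, each relative to naive cells. The same count was not taken over all genes, so mixed directions are not shown to be particular to the family.

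Of the listed BTB zinc finger genes that carry other symbols, 7 were tested. Relative to naive cells 2 of the 7 were higher and 2 lower in each of RA+VitC iTreg, TGFβ iTreg and Treg. All genes gave 29.2% higher and 26.6% lower in RA+VitC iTreg, 23.4% and 18.2% in TGFβ iTreg, and 20% and 19.2% in Treg. Bcl6, the repressor that directs follicular helper T cells, was higher by 0.24 in RA+VitC iTreg, 0.20 in TGFβ iTreg and 0.16 in Treg. Bcl6b was higher by 0.67 in RA+VitC iTreg and 1.31 in TGFβ iTreg, and Hic2 was lower by a log2 fold change of -1.03 in RA+VitC iTreg and -0.53 in TGFβ iTreg. Of 20 genes for co-repressors and partners that BTB domains recruit or meet, 8 were higher and 9 lower in RA+VitC iTreg than in naive cells, 4 higher and 8 lower in TGFβ iTreg, and 3 higher and 5 lower in Treg, beside the shares of all genes just given. The histone deacetylase gene Hdac7 was higher than in naive cells by 0.94 in RA+VitC iTreg and 0.50 in TGFβ iTreg. In Cul3, the ubiquitin ligase scaffold that BTB proteins bind, RA+VitC iTreg were higher than naive cells by 0.39 and Treg lower by a log2 fold change of -0.31.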

How the data were processed

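The authors deposited raw counts of reads per region for 16 libraries, over a union of broad peaks carrying mm9 transcript symbols, per the file headers. The submitters' processing notes list MACS2 2.1.0.20151222, SAMtools 1.7, Trim Galore 0.4.2 and bcl2fastq 2.20.0.442. Aligner and read counter: not given in the sources used here. Counts of the 8 pull-downs, 1648804 to 9731897 reads each, were fitted together, per region and summed per symbol, with edgeR 4.0.16 (R 4.3.3): TMM scaling, filterByExpr at 10 counts, quasi-likelihood F tests (residual degrees of freedom: 4) and Benjamini-Hochberg adjustment over all features at 0.05. SE is the log2 fold change over the square root of F. Inputs were fitted alike.

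Tested on data simulated for Treg against naive cells, the test recovered 88% of changes of 1 log2 unit and 99% of 2 among 14951 gene sums, and 46.3% and 91.6% among 20000 regions. Among unchanged features 9 gene sums and 3 regions were called. All features were given the same spread, and these 2 groups have the deepest pull-downs. Recovery in comparisons with the shallower iTreg libraries was not measured. A count of 0 allows up to 3 reads, 1.82 CPM in the shallowest pull-down, for counting error only. Alternatives were library-size scaling, DESeq2 1.42.0, no filter, a mean of 50 reads, thinning to 1648804 reads, leaving out each library, regions in transcripts alone and a replicate block. Named were, per comparison, the 4 largest and 4 smallest called log2 fold changes among gene sums (mean of at least 100 reads) and regions (50 reads), the listed genes, and each described gene's region with most reads; the stretches of Zbtb20 and Zbtb9, the upstream region of Zbtb41, the 5′ region of Zbtb34, the promoter-side region of Zbtb2 and the falling intron region of Zbtb38 were chosen after their values were seen. The members and lists were chosen with earlier results of these data known.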

Additional observations from a re-analysis of the deposited data

How the results depend on the processing

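Of the 95 calls among Zbtb gene sums, library sizes in place of TMM kept 90, no filter 93, DESeq2 66 and thinning to equal depth 62, all in the same direction. Leaving out 1 library at a time kept 55 calls in every fit, and 40 did not pass in at least 1. Counts of called gene sums moved for Treg relative to naive cells (14, with 9 by DESeq2 and 7 after thinning), RA+VitC iTreg relative to Treg (20, with 13 by DESeq2 and 13 after thinning) and TGFβ iTreg relative to Treg (16, with 8 after thinning). Region counts, 106, 79 and 88 in RA+VitC iTreg, TGFβ iTreg and Treg relative to naive cells, 24 in RA+VitC iTreg relative to TGFβ iTreg, and 77 and 56 in RA+VitC iTreg and TGFβ iTreg relative to Treg, became in that order 66, 45, 29, 13, 43 and 27 by DESeq2, 40, 34, 29, 13, 38 and 35 at a mean of 50 reads, where 62 members were tested, and 51, 42, 18, 10, 36 and 31 after thinning, where 121 were tested. Without 1 library, gene sums called ranged in that order over 16 to 18, 11 to 15, 12 to 13, 6 to 7, 15 to 21 and 11 to 14, and regions over 74 to 87, 41 to 66, 59 to 72, 13 to 17, 54 to 68 and 28 to 51. Over regions in a transcript alone the direction turned for Zbtb41 in TGFβ iTreg relative to naive cells (-0.088) and to Treg (-0.20) and for Zbtb34 in RA+VitC iTreg relative to Treg (0.10), and over the stretch before Tigit for Zbtb20 in RA+VitC iTreg relative to Treg (-0.049); these values rest on fewer regions by construction. The cause of the other shifts was not tested. Deviations of same-numbered libraries correlated at 0.0168 for the iTreg and 0.0116 for the sorted cells over 23572 regions, and the titles of both iTreg groups share 2 labels whose meaning is not stated, so a shared origin is not known; with a replicate block the gene sums called were 14 for Treg relative to naive cells and 8 for RA+VitC iTreg relative to TGFβ iTreg, and the regions 85 and 22.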
